A study of Mus musculus with 10 samples.

Results

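The genes described here encode the enzymes that make sterols and fatty acids, together with the proteins that control those enzymes and 1 sterol carrier. A list of 35 genes was drawn up from the pathway, and a gene was analysed where a probe set carried its symbol alone and exceeded the 40th percentile of its array on at least 2 arrays. By that rule 34 of the 35 genes entered the comparison, through 74 of the 79 probe sets that carry their symbols alone, out of 14840 genes tested in all. They comprise 18 sterol enzymes, 6 genes of regulation and transport and 10 fatty acid enzymes. The listed gene Acat2 had no probe set by this rule and was not analysed here.

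Gene expression was measured on Affymetrix arrays in 5 mouse mammary tumour cell lines, with 2 arrays per line. Line E has an epithelial form and was derived from a mammary adenocarcinoma that arose spontaneously in a female of the strain FVB/N-TgN(MMTVneu)202Mul, in which the mouse mammary tumour virus promoter drives the neu oncogene in the mammary gland. The mesenchymal lines, M1 to M4, were each grown out of a relapsed tumour of a female FVB/N mouse given an injection of E cells, so all 5 lines descend from neu-driven tumour cells. All were grown in RPMI medium with foetal bovine serum in subconfluent dishes, and the sources used here do not give the ages of the mice. Each line is a single line and there is only 1 epithelial line, so no test covers variation among epithelial lines. Whether both arrays of a line stem from different cultures is not stated, so the p-values measure only the spread between those arrays, which may be technical.

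Cells build cholesterol from acetyl-CoA through mevalonate and isoprenoid units, which are joined to squalene, closed into lanosterol and then trimmed in the post-lanosterol steps. Fatty acid synthesis starts from the same acetyl-CoA, and its products are lengthened by elongases and given double bonds by desaturases. Transcription factors of the SREBP family, encoded by Srebf1 and Srebf2, drive both sets of genes. They are escorted to the Golgi by SCAP when membrane sterol is low and are held back in the endoplasmic reticulum by the INSIG proteins when it is high. Serum lipoproteins are a further source of cholesterol for cultured cells.

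Promoter sequences are shown for the 4 genes with a RefSeq promoter window that fell most in line M3 among the genes called at least 2-fold lower there than in E and in each other relapsed line (Dhcr7, which fell against E by 2.75 on the log2 scale but was under 2-fold lower than M1, is outside that set), and for Hmgcs1, the tested gene whose window held a sterol element. They are taken from RefSeq on build GRCm38.p6, run 5′ to 3′ on the gene's strand and end before the annotated start. Capitals mark a CCAAT box on either strand (CCAAT or ATTGG) and, in Hmgcs1, the sterol element. Hmgcs1 lies at chr13:119690101-119690340 on the plus strand, Idi1 at chr13:8885531-8885605 on the plus strand, Lbr at chr1:181842402-181842499 on the minus strand, Nsdhl at chrX:72918382-72918520 on the plus strand and Cyp51 at chr5:4104698-4104756 on the minus strand.
Hmgcs1: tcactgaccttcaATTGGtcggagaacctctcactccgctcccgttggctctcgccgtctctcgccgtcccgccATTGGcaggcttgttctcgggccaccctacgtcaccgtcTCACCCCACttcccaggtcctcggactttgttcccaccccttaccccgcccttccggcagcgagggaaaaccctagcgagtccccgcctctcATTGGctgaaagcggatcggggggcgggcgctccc
Idi1: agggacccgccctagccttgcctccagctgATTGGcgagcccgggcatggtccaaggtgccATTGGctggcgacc
Lbr: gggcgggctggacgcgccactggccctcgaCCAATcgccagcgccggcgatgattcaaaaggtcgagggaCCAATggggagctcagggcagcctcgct
Nsdhl: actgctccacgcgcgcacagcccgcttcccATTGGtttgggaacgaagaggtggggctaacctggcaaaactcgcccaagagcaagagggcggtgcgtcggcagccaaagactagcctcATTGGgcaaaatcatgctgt
Cyp51: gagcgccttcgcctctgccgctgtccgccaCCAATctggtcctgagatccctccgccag
The windows searched ran from 250 bases before to 50 bases after each start, and 27 of the 34 tested genes had one. On both strands, the letters CCAAT occurred in the windows of 23 of the 27 genes (85.2%) and of 41.1% of all 27025 genes with a window. The GC box, GGGCGG, occurred in 22 of 27 (81.5%) against 38.2% of all genes. Among the 11 called lower in M3 than in E and each other relapsed line, 10 held CCAAT and 10 the GC box. Of the other 16 tested genes, 13 held CCAAT (81.2%) and 12 the GC box (75%), so both motifs were also common outside that set. The sterol element searched, TCACNCCAC, occurred in 1 of 27 (3.7%) against 1.44%, and its absence from the other windows says only that these letters are not there. No motif contains another, no CCAAT box overlaps the sterol element of Hmgcs1, and a match is a description of the sequence, not a site.

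The arrays of line M3 carried the lowest levels for most of these genes, whereas the other 3 relapsed lines lay close to line E. Against line E, 25 of the 34 genes fell in M3 and 1 rose, where 19.8% of all genes tested fell and 7.7% rose. A gene is called here when limma's moderated test gives a Benjamini-Hochberg adjusted p under 0.05 over all genes and the difference is at least 2-fold. The median log2 change of the 34 genes in M3 was -1.70, beside -0.25 over all genes tested. By role, 15 of 18 sterol enzymes, 5 of 6 genes of regulation and transport and 5 of 10 fatty acid enzymes fell. After quantile normalization 22 genes fell and 2 rose, the second being Insig2, with 11.7% and 12.1% of all genes, and the calls of Hsd17b7, Srebf2 and Scap were lost. Scaling to the hybridization controls also lost Sqle, at -0.99.

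In the other lines the counts were small. In M1, 3 genes fell and 2 rose, with 12.5% and 8.6% of all genes, and in M2, 4 fell and 3 rose, with 11.8% and 8.58%. In M4, 4 fell and 2 rose, with 20.1% and 6.65%. Their median log2 changes were 0.10 in M1, 0.11 in M2 and -0.13 in M4, beside -0.11, -0.14 and -0.35 over all genes. These counts depend on the scaling: after quantile normalization 2 fell and 2 rose in M1 (9.4% and 10.2% of all genes), 2 fell and 3 rose in M2 (8.75% and 10.1%), and 1 fell and 8 rose in M4 (9.51% and 10.4%). All 4 comparisons share the E arrays.

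**Figure D1:**
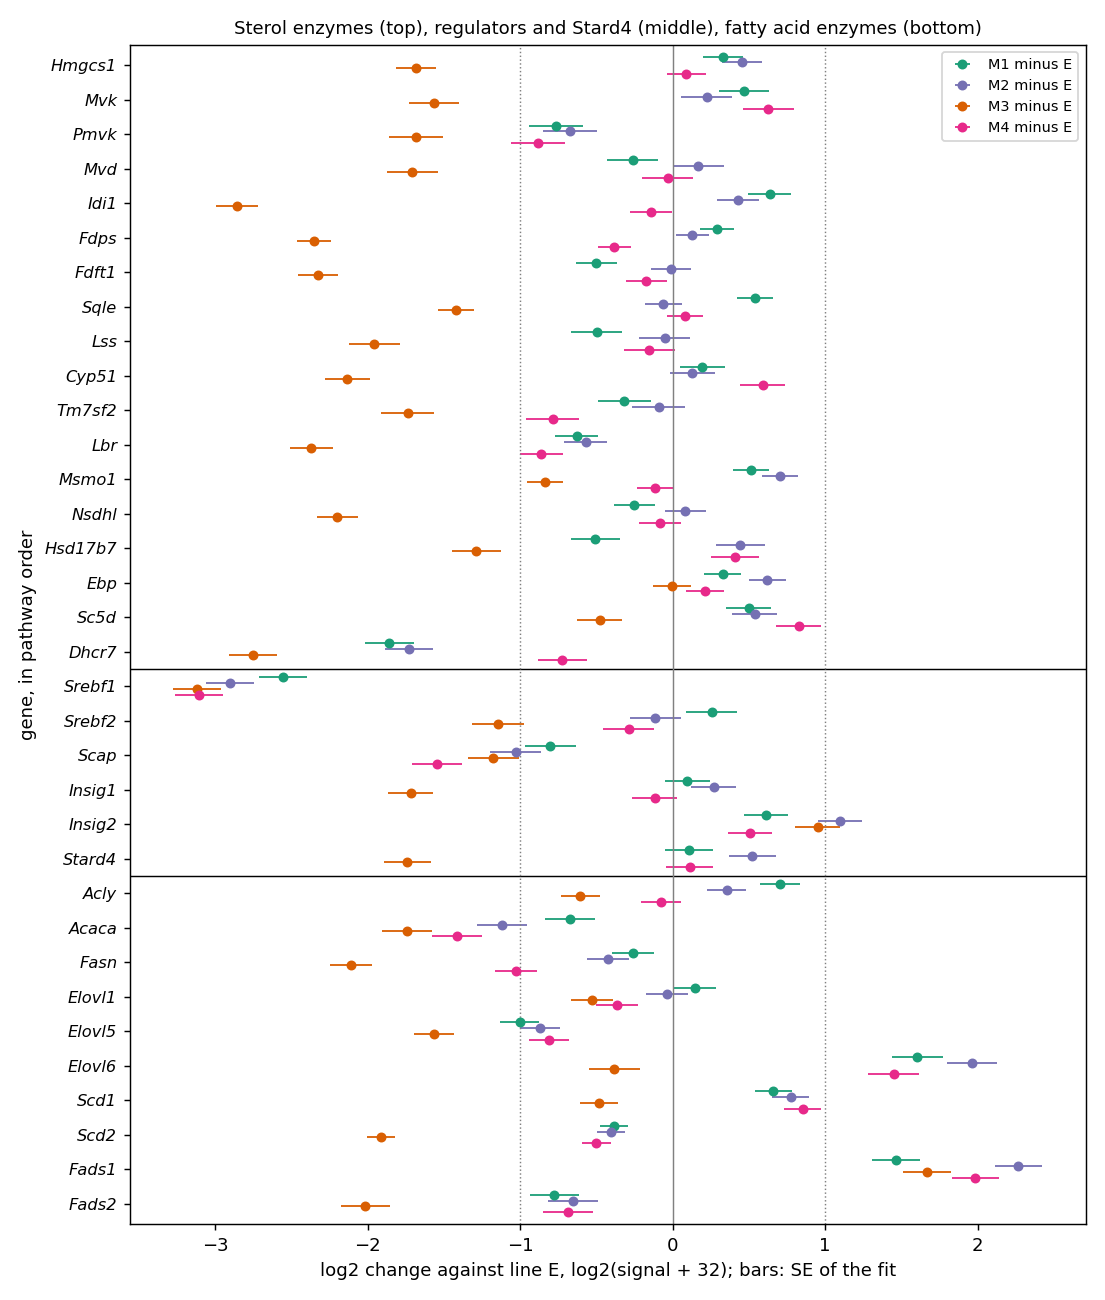
Log2 change of each of the 34 genes against line E on the log2(signal + 32) scale, with 1 point per relapsed line, bars for the SE of the fit and dotted lines at a 2-fold change. The M3 points lie left of the others for most genes, while that of Srebf1 is level with M4 and those of Scap, Insig2 and Fads1 lie among the other lines.

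**Figure D2:**
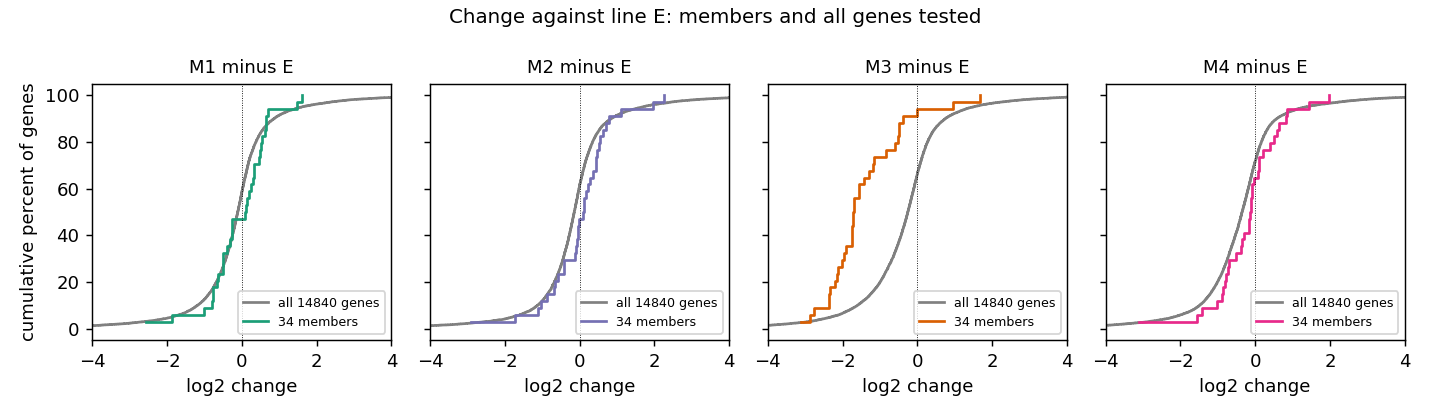
Cumulative percent of the 34 genes (coloured steps) and of all 14840 genes tested (grey) against the log2 change from line E, in 1 panel per relapsed line. The steps run left of the grey curve in M3, where the medians are -1.70 and -0.25, and close to it in the other panels.

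The difference between M3 and the other relapsed lines was tested directly, in contrasts of the M lines alone. The spread used by these tests was still estimated over all 10 arrays, those of E included. The moderated F test over the M lines called 27 of the 34 genes, and 22.4% of all genes (limma, adjusted p under 0.05 with line means at least 2-fold apart). The genes not called were Ebp, Srebf1, Scap, Insig2, Elovl1, Elovl5 and Fads1. M3 was lower than each of the other 3 M lines, with every pairwise contrast called, in 18 of the 34 genes (52.9%), and in 2.39% of all genes. The signal of both M3 arrays lay below all 8 other arrays for 29 of the 34 genes (85.3%), with 15.8% of all genes, and for 25 of them after quantile normalization, with 11.4%. The exceptions as deposited were Ebp, Srebf1, Scap, Insig2 and Fads1.

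By pair, limma called 23 genes lower and 0 higher in M3 than in M1 (1 higher at an unadjusted p under 0.05), with 8.44% and 2.55% of all genes. Against M2, 25 were lower and 0 higher in M3 (0 higher at an unadjusted p under 0.05), with 6.05% and 1.24%. In M4, 21 were higher and 0 lower than in M3 (2 lower at an unadjusted p under 0.05), with 4.56% and 5.77%. Between M3 and M1 the largest difference was that of Idi1, at -3.50 (SE 0.14, limma adjusted p = 4.86e-26). Fdps followed at -2.64 (SE 0.11) and Cyp51 at -2.33 (SE 0.15). Idi1 was also the largest between M3 and M2, at -3.29, and Cyp51 between M4 and M3, at 2.73. Between M1 and M2 limma called 0 of the 34 genes, where 5 were lower and 10 higher in M2 at an unadjusted p under 0.05, and 1.95% and 2.59% of all genes were called lower and higher. In M4 against M1 and M2, limma called 0 genes lower (12 and 15 at an unadjusted p under 0.05), with 6.83% and 5.28% of all genes, and 1 gene higher, with 2.13% and 1.04%. That gene was Dhcr7, at 1.14 over M1 (SE 0.16, adjusted p = 9.32e-08) and 1.01 over M2.

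The technical measures of M3 were recorded beside this result. The ratio of the 3′ to the 5′ probe set of Actb was 1.29 and 1.38 on the M3 arrays and 1.16 to 1.25 on the other 8, and that of Gapdh was 0.79 and 0.768, against 0.813 to 0.853. The part of these ratios in the M3 result was not tested. The median signal of the M3 arrays, 22.7 and 23.9, was close to that of the M4 arrays, 23.0 and 22.7. Beyond the other scalings given above, the part of array brightness in the M3 result was not tested. Median signals over all arrays ran from 22.7 to 35.7, and arrays of 1 line correlated at 0.9917 to 0.9927, against 0.8359 to 0.9709 between lines.

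Marker genes were set against the labels of the lines. The summed signal of the epithelial markers was 47784.4 and 50783.3 in line E and 658.7 to 8817 in the M lines, and that of the mesenchymal markers 10142.4 and 11007.1 against 16107.5 to 32956.7. Vim, a mesenchymal marker, was not called, and Krt8, an epithelial keratin, was not called in M2 (-0.01), M3 (-0.52) or M4 (-0.80). Milk-secretory markers summed to at least 16163.2 in E and at most 1969.8 in the M lines, a sum that is mostly Csn3, at least 15564.2 in E, while Xdh rose in all 4 M lines by 2.22 to 3.02. Of the adipocyte markers measured, 5 of 6 stayed under 100 on every array, with Adipoq at most 10.5, and Plin4 rose in all 4 M lines, from at most 11 in E to between 55.0 and 225.4. Leukocyte markers summed to 211.3 and 218.3 in E, 353.4 and 425.8 in M3 and 279.6 to 425.8 over the M lines, with Ptprc at most 17.6 and Lyz2 called higher in M3 at 1.19, and their part in the M3 result was not tested. On every array the 6 endothelial markers were under 100. In bulk RNA, fewer cells of a type and less RNA per cell cannot be told apart.

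In the mevalonate part of the pathway, every enzyme measured fell in M3. Hmgcs1, which makes HMG-CoA, gave 3412.2 and 2586.7 on the E arrays, 3770.1 and 3725.5 in M1, 4688.1 and 3556.2 in M2, 941.1 and 866.0 in M3, and 3153.7 and 3174.8 in M4. Its M3 arrays were the only ones under the range of E, and the log2 change was -1.68 (SE 0.13, limma adjusted p = 5.44e-16). Mvk, the kinase that phosphorylates mevalonate, gave 249.1 and 242.1 in E, 72.2 and 52.6 in M3 and 400.2 and 393.8 in M4. The 2 lines lay on either side of E, at -1.56 in M3 (SE 0.17, adjusted p = 1.36e-11) and 0.63 in M4, the latter not called as deposited but called after quantile normalization at 1.25. Mvd, the decarboxylase that yields isopentenyl diphosphate, changed by -1.71 in M3 and by -0.26 to 0.17 in the others.

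Pmvk, the kinase that acts between Mvk and Mvd, fell in the mean of the 4 relapsed lines. Its signal was 472.2 and 466.7 in E, 247.6 and 278.9 in M1, 343.3 and 230.4 in M2, 149.2 and 103.0 in M3, and 252.0 and 227.2 in M4. No M array reached the E arrays, and the mean contrast of the 4 lines against E was -1.0 (SE 0.14, limma adjusted p = 2.11e-08), at the fold threshold. Quantile normalization put it at -0.58 and leaving out line M3 at -0.78, both without a call.

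Idi1, the isomerase that balances the isoprenoid units, had the largest fall in M3 among the sterol enzymes. It gave 2295.9 and 1976.5 in E, 3414.5 and 3237.7 in M1, 3282.6 and 2528.9 in M2, 283.5 and 248.9 in M3, and 1915.7 and 1945.1 in M4. Line means were 2136 ± 226 in E and 266.2 ± 24.5 in M3 (SD, n = 2 arrays each), with a log2 change of -2.86 (SE 0.14, limma adjusted p = 1.19e-23). Its promoter stretch above holds a pair of CCAAT boxes, both in the reverse orientation.

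Fdps, which makes farnesyl diphosphate, gave 5508.2 and 4956.2 in E, 6414.0 and 6373.1 in M1, 6158.3 and 5309.4 in M2, 1013.9 and 979.1 in M3, and 3852.8 and 4157.9 in M4. The M3 signal was far below every other array, at -2.35 (SE 0.11, limma adjusted p = 3.4e-24). Fdft1, squalene synthase, gave 2857.0 and 2681.6 in E and 540.9 and 510.6 in M3, a change of -2.33 (SE 0.13), while M2 overlapped E and M4 lay just below it. M1 was next lowest after M3 for Fdft1, at 1917.9 and 1978.8, a change of -0.50 that was not called. Sqle, the oxygenase that acts on squalene, gave 3818.1 and 3314.5 in E, 1361.3 and 1259.0 in M3 and 5328.3 and 5038.8 in M1. It fell in M3 by 1.42 on the log2 scale, a call lost when the arrays were scaled to the hybridization controls. Lss, lanosterol synthase, changed by -1.96 in M3 and by -0.50 to -0.05 in the other lines. A second Lss probe set stood at -1.63 in M3 and was also called lower in M1, at -1.30, and in the mean contrast, at -1.05.

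**Figure D3:**
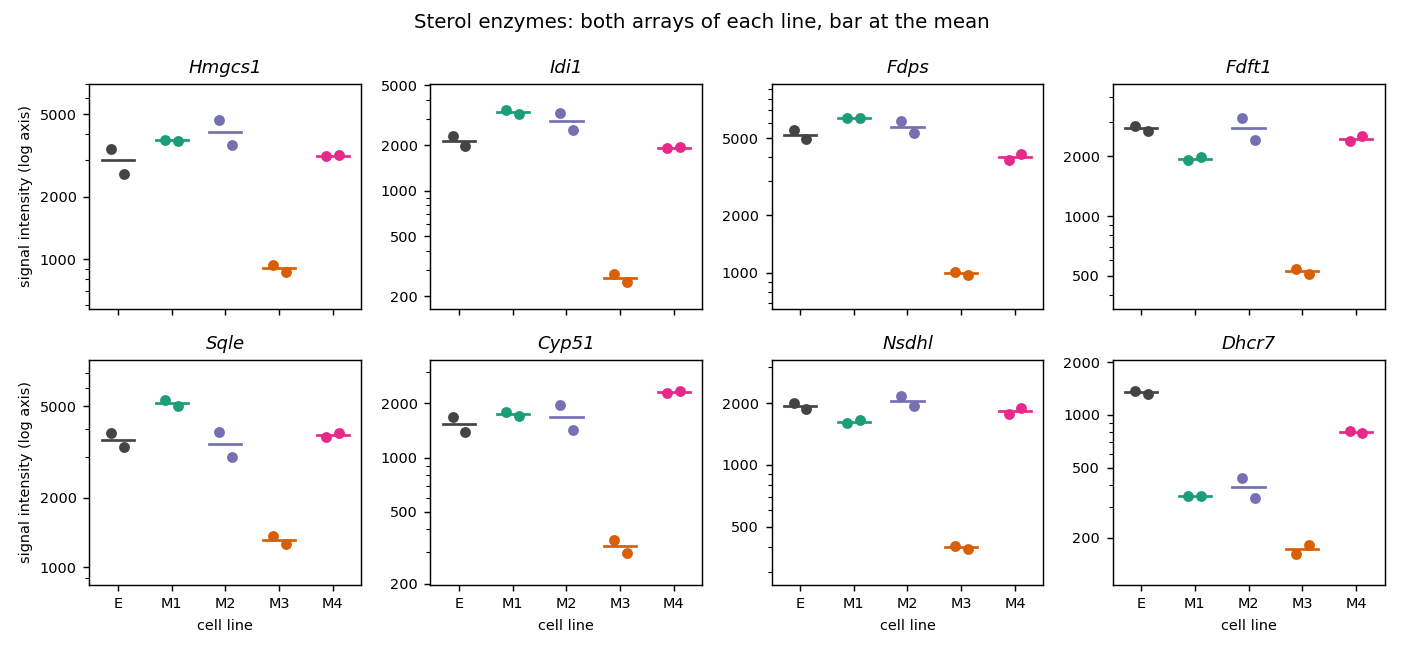
Signal intensity on both arrays of each line for 8 sterol enzymes, on log axes, with a bar at the line mean. In every panel both M3 points are the lowest, with Idi1 at 283.5 and 248.9, and only for Dhcr7 do M1 and M2 also sit well under line E.

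After lanosterol, the first steps fell in M3 and the later ones divided. Cyp51, the demethylase, gave 1673.3 and 1389.2 in E, 1789.2 and 1712.0 in M1, 1957.5 and 1424.2 in M2, 350.9 and 296.3 in M3, and 2294.6 and 2331.3 in M4. M3 was lowest and M4 highest, at -2.13 (SE 0.15, limma adjusted p = 1.1e-17) and 0.59 against E, the latter called after quantile normalization at 1.17. Nsdhl, a dehydrogenase of the demethylation steps, gave 2005.3 and 1881.5 in E and 403.7 and 391.1 in M3, a change of -2.20 (SE 0.14), with the other lines at -0.25 to 0.08. Hsd17b7, the ketosteroid reductase, changed by -1.29 in M3, where 1 of its 4 probe sets was called. Msmo1, the methyl oxidase of the same steps, stood at -0.84, Sc5d, the C5 desaturase, at -0.48, and Ebp, the sterol isomerase, at -0.01, none of them called.

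Lbr, the lamin B receptor, which is also a sterol reductase, fell in the mean contrast and was lowest in M3. Its signal was 3200.6 and 2737.4 in E, 1979.5 and 1826.4 in M1, 2359.4 and 1661.0 in M2, 561.7 and 531.9 in M3, and 1563.6 and 1667.2 in M4. The M3 change was -2.37 (SE 0.14, limma adjusted p = 6.26e-20). The mean contrast was -1.11 (SE 0.11, adjusted p = 3.78e-12), but -0.69 without line M3 and -0.80 after quantile normalization, both without a call. Tm7sf2, the other reductase of this step, changed by -1.74 in M3 and by -0.79 to -0.09 elsewhere.

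Dhcr7, the reductase of the last step to cholesterol, was the sterol enzyme lowest in the mean of the 4 lines. It gave 1376.1 and 1320.9 in E, 347.8 and 348.4 in M1, 438.4 and 335.9 in M2, 162.7 and 183.2 in M3, and 811.9 and 794.2 in M4. The lines ordered with M3 lowest, M1 and M2 overlapping, M4 above them and E highest. The mean contrast was -1.77 (SE 0.13, limma adjusted p = 3.59e-17), with -2.75 in M3, and it was -0.73 in M4, which was not called.

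For the mean of the 4 relapsed lines against E, 8 of the 34 genes fell and 2 rose, where 14.5% of all genes fell and 7.34% rose. The share of the 34 that fell was 23.5%, and without line M3 the calls in both directions came to 6. The genes that fell were Pmvk, Lbr, Dhcr7, Srebf1, Scap, Acaca, Elovl5 and Fads2, and Elovl6 and Fads1 rose. After quantile normalization 2 fell, Dhcr7 and Srebf1, and 3 rose, with Insig2 added, and 8.83% and 9.64% of all genes did so. With the 5 line means as the only samples, 2 genes were called, Srebf1 (limma adjusted p = 0.00289) and Fads1 (adjusted p = 0.0318), with 10.6% of all genes. All 8 M arrays lay below both E arrays for 10 of the 34 genes (29.4%), close to the 30.9% over all genes.

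Among the regulators, Srebf1 had the largest change of all 34 genes. It encodes SREBP-1, the form mainly tied to fatty acid synthesis, and gave 3526.5 and 3003.3 in E, 518.3 and 535.7 in M1, 462.0 and 357.5 in M2, 365.2 and 328.8 in M3, and 356.0 and 341.2 in M4. All 8 M arrays were far below both E arrays and the lines M2, M3 and M4 overlapped or adjoined one another. Line means were 3265 ± 370 in E and 347 ± 25.7 in M3 (SD, n = 2 arrays each), and the mean contrast was -2.92 (SE 0.13, limma adjusted p = 7.04e-26). The M lines differed from one another by at most 0.56, under the fold threshold, and Srebf1 was called in the mean contrast under every alternative run.

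Srebf2, encoding SREBP-2, the form mainly tied to sterol synthesis, gave 631.2 and 614.3 in E, 782.1 and 719.4 in M1, 688.4 and 475.7 in M2, 231.7 and 300 in M3, and 469.7 and 541.5 in M4. Only M3 was called, at -1.15 (SE 0.17, limma adjusted p = 6.86e-08), and that call was lost under each of the other 3 scalings, at -0.61 after quantile normalization. Scap gave 1117.0 and 974.2 in E, 623.1 and 548.8 in M1, 580.3 and 420.9 in M2, 472.4 and 416.5 in M3, and 377.9 and 298.7 in M4. Every M array was below E, with a mean contrast of -1.14 (SE 0.13, adjusted p = 1.62e-10) that became -0.75 after quantile normalization, without a call.

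The 2 INSIG genes differed in M3. Insig1, itself an SREBP target, gave 1365.4 and 1254.3 in E, 1424.4 and 1380.0 in M1, 1797.2 and 1394.7 in M2, 373.9 and 376.3 in M3, and 1102.9 and 1311.5 in M4. Its M3 arrays stood apart below the rest, at -1.72 (SE 0.15, limma adjusted p = 1.95e-14). Insig2 gave 670.0 and 619.3 in E, 972.9 and 1033.9 in M1, 1585.5 and 1267.0 in M2, 1271.4 and 1277.0 in M3, and 901.6 and 954.2 in M4. All M arrays exceeded E, and M2 was called at 1.10 (SE 0.15), while M3 stood at 0.95, called under each of the other 3 scalings. Stard4, which carries cholesterol between membranes, gave 769.5 and 643.5 in E and 180.4 and 196.3 in M3, a change of -1.74 (SE 0.16), and the other lines stood at 0.11 to 0.52.

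**Figure D4:**
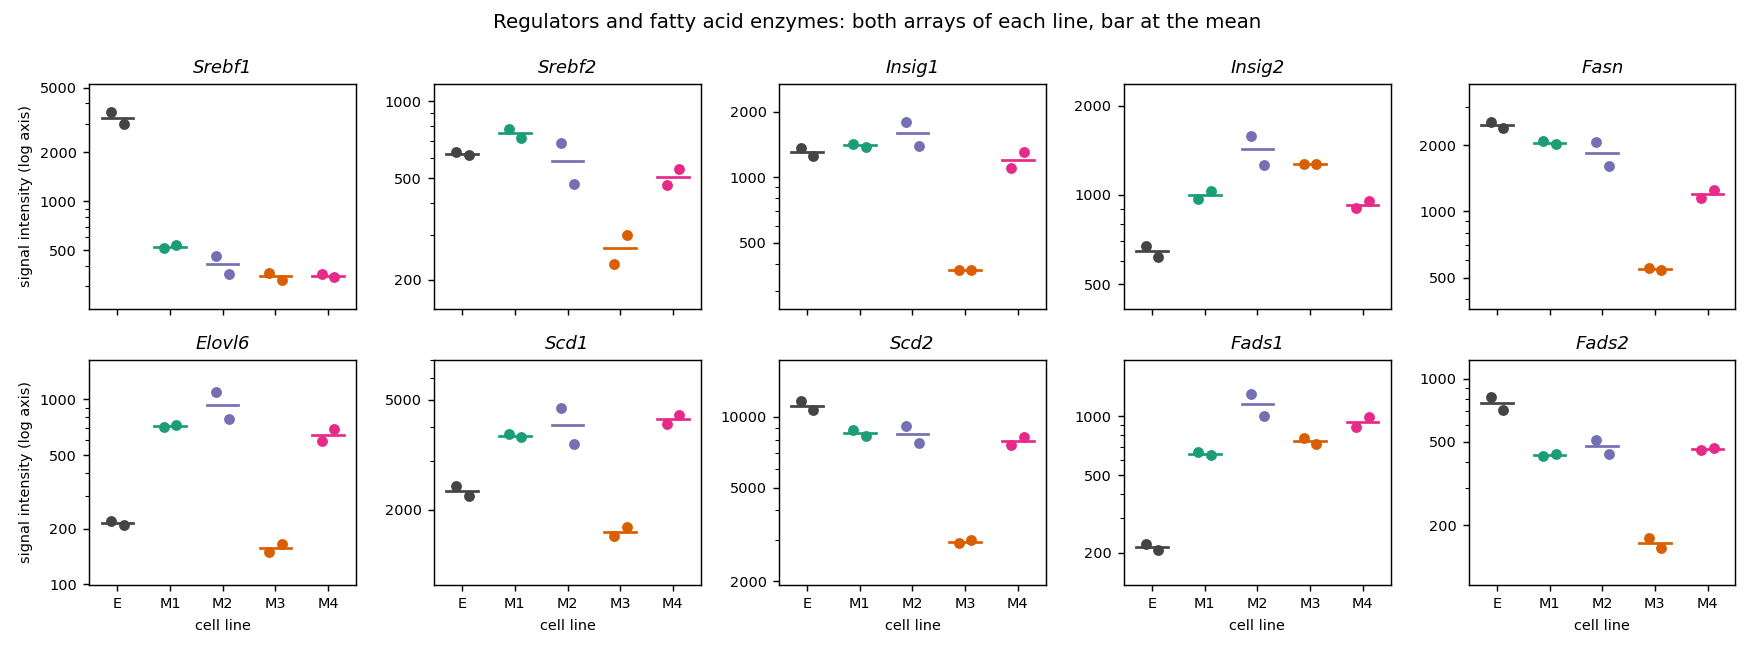
Signal intensity on both arrays of each line for 4 regulators and 6 fatty acid enzymes, on log axes, with a bar at the line mean. Srebf1 is low in all M lines, Insig1, Fasn, Scd2 and Fads2 are lowest in M3, and Elovl6 is high in M1, M2 and M4 but at 149.0 and 164.4 in M3.

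The enzymes that build palmitate varied in their extent. Acly, which supplies cytosolic acetyl-CoA, was not called in any line and stood at -0.61 in M3. Acaca, acetyl-CoA carboxylase, gave 724.1 and 734.7 in E, 465.4 and 426.8 in M1, 355.2 and 285.3 in M2, 200.8 and 189.2 in M3, and 235.5 and 272.3 in M4. Every M array was below E, and the mean contrast was -1.24 (SE 0.13, limma adjusted p = 9.17e-12), or -0.83 and not called after quantile normalization. Fasn, the fatty acid synthase, gave 2542.9 and 2398.7 in E, 2087.3 and 2027.7 in M1, 2072.0 and 1614.1 in M2, 551.6 and 541.3 in M3, and 1146.0 and 1247.6 in M4. M3 was lowest, at -2.11 (SE 0.14, adjusted p = 1.41e-18), and M4 was next, at -1.03, a call lost under each of the other 3 scalings.

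The elongases went in different directions. Elovl6, which lengthens palmitate, gave 219.7 and 208.0 in E, 706.2 and 725.2 in M1, 1095.8 and 781.7 in M2, 149.0 and 164.4 in M3, and 592.3 and 690.3 in M4. It rose in M1 by 1.6, in M2 by 1.96 and in M4 by 1.45 on the log2 scale, and M3 stood at -0.38, under E. The mean contrast was 1.16 (SE 0.13, limma adjusted p = 9.76e-11), and averaging its probe sets, of which another lies near background, gave 0.59 with no call. Elovl5, which lengthens polyunsaturated fatty acids, gave 3941.3 and 3410.9 in E, 1917.3 and 1710.2 in M1, 2187.7 and 1814.5 in M2, 1268.6 and 1171.3 in M3, and 2023.6 and 2130.1 in M4. Its mean contrast was -1.06 (SE 0.10), and -0.80 without a call after quantile normalization. Elovl1, an elongase of saturated very long chains, was called in no line.

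The desaturases divided as well. Fads1, the delta-5 desaturase, gave 220.5 and 205.5 in E, 657.3 and 630.4 in M1, 1304.3 and 1008.2 in M2, 773.3 and 721.7 in M3, and 887.2 and 990.4 in M4. It rose in all 4 lines, with a mean contrast of 1.85 (SE 0.12, limma adjusted p = 2.91e-18), and was the 1 gene of the 34 to rise in M3, at 1.67. Its other probe set lay near background and was not called, and the average of both gave 0.91 without a call. Fads2, the delta-6 desaturase, gave 822.1 and 711.1 in E, 426.9 and 438.1 in M1, 512.0 and 439.4 in M2, 173.6 and 156.6 in M3, and 456.7 and 469.3 in M4. It was lower on every M array and lowest in M3, at -2.02 (SE 0.16), with a mean contrast of -1.03 (SE 0.13, adjusted p = 8.54e-10) that became -0.63 without a call after quantile normalization.

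The stearoyl-CoA desaturases, which make monounsaturated fatty acids, were both lowest in M3. Scd2 gave 11695.3 and 10662.4 in E, 8815.5 and 8294.0 in M1, 9162.2 and 7759.1 in M2, 2895.4 and 2990.0 in M3, and 7576.0 and 8185.3 in M4, and fell in M3 by 1.91 on the log2 scale (SE 0.09, limma adjusted p = 3.3e-23). Scd1 gave 2447.9 and 2234.4 in E, 1604.5 and 1727.0 in M3 and 3468.8 to 4669.6 on the arrays of M1, M2 and M4. This probe set was called against E in no line, at -0.48 in M3 and 0.66 to 0.85 in the others, and was called lower in M3 than in each other M line. The second Scd1 probe set was called higher than E in M1, M2 and M4, at 1.19, 1.42 and 1.5, and stood at 0.63 in M3, so the sign of the M3 difference from E depends on the probe set.

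Of the 34 genes, 22 had more than 1 probe set above the filter. In M3 the probe sets gave the same call for 16 of these genes and were called only in part for 6, and none gave opposite calls in any comparison. The mean contrast had the same call for 14 and a call in part for 8. For Acaca, Elovl6, Fads1 and Fads2 the probe set used was called there. For Insig2, Lss, Scd1 and Scd2 only others were, with Scd2 at -1.14 and -1.19 and Scd1 at 1.18. Scd2's other probe sets stood at -2.47 and -2.51 in M3, and both other probe sets of Insig2 were called in M3, at 1.15 and 1.19.

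Other genes of the pathway, listed with earlier results known, were counted in the same fit. Among 32 tested genes of related synthesis steps and SREBP control, 12 fell and 2 rose in the mean contrast, and 15 fell and 2 rose in M3. The M3 count was close to that of M4, where 14 fell and 2 rose. In M1 10 fell and 4 rose, and in M2 9 fell and 2 rose. Over all genes 14.5% fell and 7.34% rose in the mean contrast, and 19.8% and 7.7% in M3. The shares were 20.1% and 6.65% in M4, 12.5% and 8.6% in M1, and 11.8% and 8.58% in M2. Pcyt2, an enzyme of phosphatidylethanolamine synthesis, changed by -2.47 in the mean (SE 0.14, limma adjusted p = 4.16e-21) and was lowest in M3, at 24.2 and 13.4. Me1, malic enzyme, changed by -2.09 and Hacd1, a dehydratase of chain elongation, by 2.37. Fads3, a gene of the desaturase family, gave 6.1 and 2.4 in E and 306.8 to 1295.5 on the M arrays. The E signals are under their array medians of 35.7 and 29, so the size of that rise depends on the added 32 and is not given. M3 was called lower than each other M line for 2 of the 32, Pcyt2 and Tmem97, and for 2.39% of all genes.

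Among 20 tested genes of sterol uptake, export and storage, 3 fell and 1 rose in the mean contrast, and 3 fell and 5 rose in M3. The shares over all genes were 14.5% lower and 7.34% higher in the mean contrast, and 19.8% and 7.7% in M3. The 3 of 20 that fell are near these shares in both, while the 5 of 20 that rose in M3 lie above theirs. Lrp1, a lipoprotein receptor, rose from 23 and 5.7 in E, under the array medians, to between 720.5 and 1772.3 on the M arrays. Cyp39a1, an oxysterol hydroxylase, fell from 177.8 and 160.8 in E to at most 26.5, and Cyp7b1, another, from 200.7 and 178.8 to at most 90.8. Stard3, a sterol carrier of late endosomes, changed by -1.0. Chosen after their values were seen, Abca1, a cholesterol exporter, rose in M3 by 1.15, Npc1, which moves cholesterol out of lysosomes, by 1.15 and Lipa, the lysosomal acid lipase, by 1.09. The rises of Abca1 and Lipa are not particular to M3: Abca1 fell in M1 by 1.20 and rose in M4 by 2.01, and Lipa rose in M2 by 1.57. Npc1 was called in M3 only, and stood at -0.01 in M1, 0.84 in M2 and -0.41 in M4.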

How the data were processed

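RNA of 10 samples of 5 lines was labelled as biotinylated cRNA and hybridized to Affymetrix mouse arrays, per the labels' protocols. The deposited values are probe set signal intensity on a linear scale, and GCOS 1.3 is named in the submitters' processing notes, while the sources used here do not give the scaling target. Of 45101 probe sets, 64 were controls, 34945 carried 1 gene symbol, 932 several and 9160 none, and 34741 of those with 1 symbol matched the gene table. Only probe sets with 1 symbol were used.

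Probe sets had to exceed the 40th percentile of an array on 2 or more arrays. Where several remained for a gene, the brightest on average was taken, which gave 14840 genes. Changes are on the log2(signal + 32) scale, which understates the change of dim genes. limma 3.58.1 in R 4.3.3 (lmFit, eBayes with trend) fitted 1 mean per line over all 10 arrays, with Benjamini-Hochberg adjustment over all genes. A call needed an adjusted p under 0.05 and a 2-fold change. The fold minimum set the calls, since every gene past 2-fold in the mean contrast passed the p threshold. The number of arrays limits the precision, and the median residual SD was 0.16.

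The members and lists were chosen with earlier results of these data known. Per-array values are given for genes called in the mean contrast or in at least 2 of the 4 lines and for the regulators, with further members shown where M3 differed most. From each other list up to 4 called genes with the largest mean change are named, and for each pair of M lines at most 3 genes. The alternatives were other pseudocounts, filters, probe set rules and scalings, the replicate number as a block, the line means as samples and each array or line left out. The gene fit was tested on simulated data.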

Additional observations from a re-analysis of the deposited data

Results flagged for a closer look

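For 27 genes the change from line E differed between the relapsed lines by limma's F test among those lines with means at least 2-fold apart, and M3 had the lowest mean in each of the 27. The value given for each is the highest minus the lowest M line mean on the log2 scale. Among the sterol enzymes it was 3.50 for Idi1 (adjusted p of the F test 3.9e-27), 2.73 for Cyp51, 2.64 for Fdps, 2.32 for Fdft1, 2.28 for Nsdhl, 2.19 for Mvk, 2.14 for Hmgcs1, 2.03 for Dhcr7 and 1.96 for Sqle. It was 1.91 for Lss, 1.88 for Mvd, 1.80 for Lbr, 1.73 for Hsd17b7, 1.65 for Tm7sf2, 1.54 for Msmo1, 1.31 for Sc5d and 1.0 for Pmvk. Among the regulators and the carrier it was 2.26 for Stard4, 1.99 for Insig1 and 1.40 for Srebf2. Among the fatty acid enzymes it was 2.35 for Elovl6, 1.85 for Fasn, 1.53 for Scd2, 1.36 for Fads2, 1.34 for Scd1, 1.31 for Acly and 1.07 for Acaca. Lines of 2 arrays were not tested for single arrays that stand apart.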

How the results depend on the processing

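The 26 genes called in M3 were 23 to 27 under the alternatives, the 27 called among the M lines 23 to 27, and the 18 lowest in M3 15 to 21. No result reversed. The 10 genes called in the mean contrast were 5 after quantile normalization, 5 after median centring, 5 after scaling to hybridization controls, 6 with a larger pseudocount, 6 without line M3 and 2 on the 5 line means. Leaving out single arrays gave 6 to 11, with 6 without E replicate 1, where Pmvk, Lbr, Elovl5 and Fads2 were lost. The 5 genes called in M1 were 3 with the mean of a gene's probe sets. Over all genes, 3237 were called, 1572 on the line means and 2081 with the larger pseudocount. The list of fatty acid uptake, storage and oxidation went from 12 to 6 under both, that of sterol uptake, export and storage from 4 to 2 under both, and that of other synthesis genes from 14 to 6 on the line means. The line means leave fewer samples by construction, and for the other settings the cause was not tested. The replicate numbers did not pair the arrays: deviations of same-numbered arrays correlated at -0.0711 to 0.0576 over 10 pairs of lines. With the replicate block 10, 26, 27, 18 and 3237 were called, as without it. The probe set with the highest mean log2 signal was an alternative chosen after seeing the data. Dim genes have the least certain changes.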

Other observations

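Genes of fatty acid uptake, storage and oxidation, another list made with earlier results known, were counted in the same fit. Of 32 tested genes 7 fell and 5 rose in the mean contrast, and 6 fell and 5 rose in M3, where over all genes 14.5% fell and 7.34% rose in the mean contrast and 19.8% and 7.7% in M3. Decr1, which reduces dienoyl-CoA in beta-oxidation, rose from 21.9 and 7.6 in E, under the array medians of 35.7 and 29, to between 465.6 and 759.3 on the M arrays. Cpt1a, the carnitine transferase that admits fatty acids to mitochondria, rose by 2.6 on the log2 scale (SE 0.13, limma adjusted p = 4.75e-23) and Slc27a1, a fatty acid transporter, by 1.99. Mgll, the monoglyceride lipase, fell from 561.7 and 507.4 in E to between 5.2 and 71.2. Each of these 4 genes was called in the same direction in all 4 relapsed lines. Of the list of sterol uptake, export and storage, Nceh1, which hydrolyses cholesteryl esters, rose in M3 by 1.10. Mylip of that same list, which targets lipoprotein receptors for degradation, changed there by -1.07. Both were chosen after their values were seen.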
